A study of Homo sapiens with 8 samples.

Results

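The genes described here are 10 inflammatory cytokine and chemokine genes of the monocyte lineage: IL1B, IL18, IL1RN, TNF, CXCL8, CXCL2, CCL2, CCL3, CCL4 and CCL5. They were chosen by symbol among the 60664 genes of the deposited expression table, and all 10 symbols were found there. RNA was sequenced from THP-1, an established human acute monocytic leukemia cell line whose genotype the labels give as WT. Parental THP-1 cells and DAC-resistant THP-1 cells each received the solvent DMSO or 1 µM DAC over 6 days, which gave 4 groups with 2 biological replicates each and 8 libraries in all. DAC (decitabine) is a cytidine analogue that is built into DNA and lowers DNA methylation. The DAC-resistant cells are 1 population that survived repeated cycles of DAC at a nearly fully lethal dose and were then kept without drug before the experiment, so their DMSO group had also met DAC in the past. The question for these genes was how DAC changed their RNA in parental cells, whether the same dose did so in resistant cells, and where resistant cells stood without drug.

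Monocytes release these proteins to call in and activate other immune cells. IL1B and IL18 are members of the IL-1 family that are made as inactive precursors and are cut by caspase-1 in the inflammasome. IL1RN encodes the antagonist that occupies the IL-1 receptor without signalling, TNF acts through TNFRSF1A and TNFRSF1B, CXCL8 and CXCL2 draw neutrophils through CXCR2, and CCL2, CCL3, CCL4 and CCL5 draw monocytes, T cells and other leukocytes through CC chemokine receptors such as CCR2 and CCR1. Many of these genes are known targets of NF-kB and AP-1, and several of their mRNAs are held short-lived by AU-rich elements.

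Positions are GENCODE v44 coordinates of GRCh38. CXCL8 (ENSG00000169429, chr4:73740519-73743716, plus strand) and CXCL2 (ENSG00000081041, chr4:74097040-74099196, minus strand) belong to the CXC chemokine cluster of chromosome 4. CCL2 (ENSG00000108691, chr17:34255274-34257208, plus strand), CCL5 (ENSG00000271503, chr17:35871491-35880793, minus strand), CCL3 (ENSG00000277632, chr17:36088256-36090169, minus strand) and CCL4 (ENSG00000275302, chr17:36103827-36105621, plus strand) belong to the CC chemokine cluster of chromosome 17. IL1B (ENSG00000125538, chr2:112829751-112836816, minus strand) and IL1RN (ENSG00000136689, chr2:113099315-113134016, plus strand) share the IL-1 cluster of chromosome 2. TNF (ENSG00000232810, chr6:31575565-31578336, plus strand) and IL18 (ENSG00000150782, chr11:112143253-112164096, minus strand) stand apart from the other members.

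Promoter sequence is shown for 5 members that DAC raised in parental cells, so that the elements just before their start sites can be compared. The RefSeq promoter table (GRCh38.p14) held 6 of the 10 members, and CCL2, CCL4, CCL5 and IL18 had no entry in it. The 120 bases before the start site are given 5′ to 3′ on the gene's own strand, with capitals marking a kB motif match.
CXCL8, chr4:73740449-73740568, plus strand: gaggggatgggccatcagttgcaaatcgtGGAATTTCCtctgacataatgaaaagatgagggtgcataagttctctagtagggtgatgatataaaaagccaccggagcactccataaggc
CXCL2, chr4:74099196-74099315, minus strand: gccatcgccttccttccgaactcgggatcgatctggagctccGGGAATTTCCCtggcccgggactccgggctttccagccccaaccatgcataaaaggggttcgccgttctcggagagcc
TNF, chr6:31575445-31575564, plus strand: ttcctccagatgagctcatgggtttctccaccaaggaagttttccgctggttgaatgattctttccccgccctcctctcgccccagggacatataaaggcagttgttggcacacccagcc
IL1B, chr2:112836780-112836899, minus strand: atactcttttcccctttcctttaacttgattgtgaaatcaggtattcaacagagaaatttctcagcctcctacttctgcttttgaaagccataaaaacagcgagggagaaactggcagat
CCL3, the first of its 3 listed start sites, chr17:36090144-36090263, minus strand: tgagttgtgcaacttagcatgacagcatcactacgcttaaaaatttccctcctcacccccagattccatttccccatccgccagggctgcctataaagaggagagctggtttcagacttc

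Motifs were searched on both strands of the 250 bases before each start. The kB core GGAATTTCC was found in CXCL8, beginning at position -91 from the start, and in CXCL2 at -77. That core was present in 0.4% of all 35116 promoter windows of the table. A separate kB consensus, which need not match where the core does, matched at 2 overlapping positions in CXCL2, over the core there. It had no match in CXCL8 and was present in 10.0% of all windows. The AP-1 motif TGANTCA was found at -137 in CXCL8, outside the stretch shown, and in 6.6% of all windows. The TATA motif TATAAA was found at -31 in CXCL8, at -29 in TNF and at -29 before the first CCL3 start, and in 10.7% of all windows. The other windows shown did not hold these letters. That says nothing of sites farther away, nor of sites inside these windows that are spelled otherwise, which such a search misses. The number of CpG pairs, the sites where DNA methylation occurs, was 1 in the 250 bases of IL1B, 2 in the first CCL3 window, 4 in CXCL8, 10 in TNF and 20 in CXCL2, against a median of 11 over all windows. Methylation of these windows was not analysed here.

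Levels are given in FPKM, reads scaled by gene length and library size. The lengths are those of gene models and not of the transcripts present. Comparisons of level between genes are therefore approximate, while the length cancels when a gene is compared between libraries. Reads behind the values were recovered for all 10 genes, for CXCL8, CCL2, CCL5 and IL1RN with a gene length solved from the values themselves, and library totals lay between 27480502 and 31916835 reads. Changes were tested with limma on log2(FPKM + 1), a scale that understates changes of genes near or under 1 FPKM. To be called raised or lowered, a gene had to move by 1 or more on the log2 scale with an unadjusted p no higher than 0.01. Benjamini-Hochberg adjustment ran over the 14899 genes tested, which reached 1 FPKM in 2 or more libraries. All 10 genes passed this filter, but IL1B, CXCL2 and CCL4 passed it through the DAC-treated parental libraries alone, so their difference from the other groups is partly set by the filter. The smallest p of an exact permutation test of 2 libraries against 2 is 0.333, and limma reaches lower values only by borrowing the spread of other genes. The labels call the replicates biological and say nothing more on separate cultures.

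Of 10 monocytic marker genes, 7 were at 1 FPKM or more in both parental DMSO libraries, 9 in parental DAC, and 6 in either resistant group. Their summed level was 297 to 310 FPKM in parental DMSO, 372 to 377 in parental DAC, 209 to 214 in resistant DMSO and 203 to 208 in resistant DAC. FCN1, a marker of blood monocytes, was below 1 FPKM in every library, and CD86 was below 1 FPKM outside the parental DAC libraries. CD14, the lipopolysaccharide co-receptor, stood at 1.45 and 1.58 FPKM in parental DMSO, 19.0 and 20.8 in parental DAC, 0.7497 and 0.989 in resistant DMSO, and 0.837 and 1.37 in resistant DAC. CD4, which with SPI1 made most of the sum, went the other way in parental cells, at 151 and 163 FPKM in DMSO and 121 and 125 in DAC, and had 124 and 121 FPKM in resistant DMSO and 116 and 113 in resistant DAC. CD33, a myeloid surface marker, was also lower with DAC in parental cells, at 8.10 and 7.61 FPKM against 9.92 and 9.74, and lay between 4.17 and 4.46 FPKM in resistant cells. Of 6 T and NK cell markers, CD3D, CD3E, CD2, CD8A and GNLY were below 1 FPKM in every library, and their sum (5.15 to 6.19, 16.9 to 17.6, 2.05 to 2.76 and 1.68 to 2.74 FPKM in the same order of groups) was nearly all NKG7. The summed fibroblast and epithelial markers were 0.865 to 1.01, 14.2 to 14.4, 7.07 to 7.08 and 5.31 to 5.64 FPKM, of which COL1A1 and PDGFRB made most. Summed B and plasma cell markers lay between 5.73 and 10.7 FPKM and erythroid ones at 3.08 FPKM or lower. The erythroid sums overlapped between parental DMSO, parental DAC and resistant DMSO libraries, whereas the other sums did not overlap between parental DMSO and parental DAC, nor between parental and resistant DMSO libraries. Their part in the results was not tested. In bulk RNA, fewer cells of a kind and less RNA per cell cannot be told apart.

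DAC raised 7 of the 10 genes in parental cells and lowered none. CXCL8, IL1B and CCL2 rose by 32.8-fold, 27.1-fold and 25.5-fold in mean FPKM, CCL3 by 14.6-fold, CXCL2 by 6.47-fold and TNF by 4.61-fold, and CCL4 rose from at most 1 read per library. The remaining members, IL18, IL1RN and CCL5, changed by less than the called size. Of all tested genes, 6.66% were raised and 2.64% were lowered in this comparison. The median log2 fold change of the 10 genes was 1.85, against 0.06 over all tested genes. The libraries of the 2 groups did not overlap for any of the 10 genes, which was so for 79.4% of all tested genes. Without either one of the parental DAC libraries, IL1B, CXCL2 and CCL4 fell under the filter and 4 of 7 tested members were raised, and with the same genes tested 7 were raised.

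Of the IL-1 family, IL1B, the main pyrogenic IL-1 cytokine, had 0.377 and 0.427 FPKM in parental DMSO (36 and 39 reads) and 10.5 and 11.3 FPKM in parental DAC (867 and 936 reads). Both DAC libraries stood far above both DMSO libraries, with a log2 fold change of 3.08 (SE 0.104, limma adjusted p = 1.8e-06). IL18, which acts on T and NK cells to induce interferon-γ, was instead lower with DAC. It had 14.8 and 14.2 FPKM in parental DMSO and 7.20 and 8.67 FPKM in parental DAC. Its log2 fold change of -0.80 (95% interval -1.03 to -0.56, limma adjusted p = 0.00056) was short of the called size. IL1RN had 6.19 FPKM in each parental DMSO library and 8.60 and 7.70 FPKM in parental DAC, a log2 fold change of 0.35 (limma adjusted p = 0.019) that was not called.

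The balance within the IL-1 family differed between the groups. In parental DMSO libraries the antagonist IL1RN was at 16.4 and 14.5 times the level of IL1B, and in parental DAC libraries at 0.820 and 0.680 times. IL18 was at 39.3 and 33.1 times the IL1B level in parental DMSO and at 0.688 and 0.766 times in parental DAC. In resistant cells IL1RN was at 26.2 and 16.7 times the IL1B level in DMSO and at 14.6 and 45.8 times in DAC, and IL18 at 78.1 and 63.5 times and at 40.8 and 139 times. IL1B rested on 9 to 27 reads per library there. In parental cells IL1B went with DAC from the lower to the higher FPKM of both pairs, and in resistant cells it was the lower one in every library. The parental DAC ratios are close to even, so which transcript is the higher there depends on the gene lengths used.

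TNF, the cytokine that activates endothelium and other leukocytes, had 8.18 and 7.94 FPKM in parental DMSO and 36.1 and 38.2 FPKM in parental DAC. Its log2 fold change was 2.07 (SE 0.0358, limma adjusted p = 1.4e-07). TNF was the best measured of the 7 raised genes, since every library held at least 404 of its reads.

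Both neutrophil chemokines rose. CXCL8 (IL-8) had 1.13 and 1.38 FPKM in parental DMSO and 41.9 and 40.5 FPKM in parental DAC, a log2 fold change of 4.23 (SE 0.14, limma adjusted p = 1.6e-06). CXCL2 had 0.361 and 0.307 FPKM against 2.63 and 1.69 FPKM, on 16, 13, 101 and 65 reads, with a log2 fold change of 1.23 (SE 0.195, limma adjusted p = 0.0018). CXCL2 had the largest standard error of the 10 genes, and it stayed far below CXCL8 in both DAC-treated parental libraries. CXCL8 and CXCL2 hold the kB core in the promoter sequences shown above, and TNF, IL1B and CCL3, which were raised too, do not hold those letters in theirs. Sites spelled otherwise are not covered by this.

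Among the CC chemokines, CCL2 (MCP-1), the ligand of CCR2, had 3.48 and 3.60 FPKM in parental DMSO and 90.7 and 89.6 FPKM in parental DAC, with a log2 fold change of 4.33 (SE 0.105, limma adjusted p = 4.5e-07). CCL3 (MIP-1α) had 0.591 and 0.419 FPKM against 7.60 and 7.14 FPKM, a log2 fold change of 2.48 (limma adjusted p = 1.2e-05). CCL4 (MIP-1β) had no read in the first parental DMSO library and 1 in the second, against 94 and 114 reads, or 1.905 and 2.31 FPKM, in parental DAC. The ratio of its reads per library total was 235 (95% exact interval 41.7 to 9310, which covers counting error only), and limma called it raised (adjusted p = 4.2e-05). CCL3 and CCL4 each have a near-identical copy, CCL3L3 and CCL4L2, and reads may have been split between copies, so their levels are uncertain to that extent. CCL5 (RANTES), a ligand of CCR1, was already the highest of the 10 genes in parental DMSO, at 48.3 and 46.7 FPKM. It had 56.8 and 59.5 FPKM with DAC, a log2 fold change of 0.29 (95% interval 0.20 to 0.37, limma adjusted p = 0.00049) that was under the called size.

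In DAC-resistant cells, the same dose led to no call for any of the 10 genes, against 0.235% of all tested genes called in either direction. By limma, 2 of them had an unadjusted p under 0.05, 1 (TNF) was under 0.05 after adjustment with a higher mean, as were 5.88% of all tested genes, and voom on the recovered reads called 0. The median log2 fold change was -0.01, with 0.01 over all genes. The libraries with and without DAC overlapped for 8 of the 10 genes, and were apart for TNF and CXCL8. For all tested genes they were apart in 56.3%.

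TNF had 35.3 and 35.0 FPKM in resistant DMSO and 51.1 and 49.9 FPKM in resistant DAC. Its log2 fold change of 0.51 (95% interval 0.42 to 0.60, limma adjusted p = 0.0012) was past the adjusted threshold but under the called size. CXCL8 lay the other way, at 4.22 and 4.20 FPKM in resistant DMSO and 2.03 and 3.14 FPKM in resistant DAC, a log2 fold change of -0.56 (95% interval -0.89 to -0.22) with an adjusted p of 0.052 by limma.

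CCL2 stayed at trace level in resistant cells, at 0.447 and 0.268 FPKM with DMSO (28 and 16 reads) and 0.410 and 0.164 FPKM with DAC (26 and 10 reads). IL1B was similarly low, at 0.158 and 0.199 FPKM with DMSO (15 and 18 reads) and 0.281 and 0.0977 FPKM with DAC (27 and 9 reads). For these genes the 95% intervals of the DAC effect were -0.33 to 0.17 and -0.24 to 0.26 on the log2(FPKM + 1) scale, so a rise of the size called in parental cells was outside them. CXCL2 had 5 reads in each resistant DMSO library and 17 and 1 with DAC, which is too few for more than an interval of -0.38 to 0.56.

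CCL3 had 1.12 and 1.34 FPKM in resistant DMSO and 1.22 and 0.765 in resistant DAC, and CCL4 had 0.424 and 0.482 against 0.489 and 0.382 FPKM. CCL5 was at 110.1 and 114.4 FPKM without DAC and at 110.6 and 112.2 FPKM with it, and its interval of -0.09 to 0.07 was the narrowest of the 10 genes. IL18 had 12.3 and 12.6 against 11.5 and 13.6 FPKM, and IL1RN had 4.13 and 3.33 against 4.09 and 4.47 FPKM. The lower IL18 level that DAC-treated parental cells had was not seen with DAC in resistant cells, where the interval of the log2 fold change ran from -0.24 to 0.24.

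**Figure D1:**
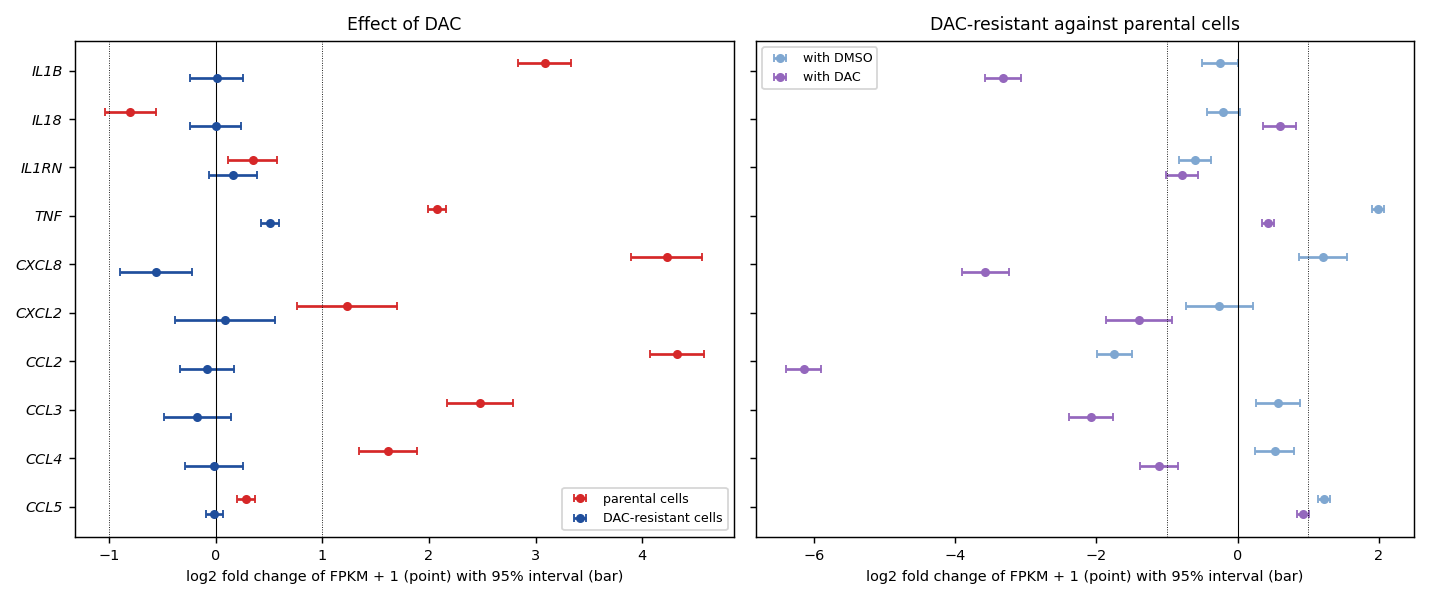
Log2 fold changes of FPKM + 1 (horizontal axis) with 95% intervals from limma for the 10 genes; the left panel shows DAC against DMSO in parental and DAC-resistant cells, the right panel DAC-resistant against parental cells under DMSO and under DAC, and dotted lines mark a change of 1 in size. DAC moved 7 genes beyond the line in parental cells and none in DAC-resistant cells, and under DAC the difference between the cell lines reached -6.15 for CCL2.

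The difference between the 2 DAC effects was tested as an interaction, which is the DAC effect in resistant cells minus that in parental cells. The 7 genes that DAC raised in parental cells all had a lower DAC effect in resistant cells at the called size, against 7.16% of all tested genes. The interaction was -4.79 for CXCL8 (SE 0.198, limma adjusted p = 7.6e-06), -4.41 for CCL2 (3.3e-06), -3.08 for IL1B (1.4e-05), -2.65 for CCL3 (6.9e-05), -1.64 for CCL4 (0.00029) and -1.56 for TNF (2.8e-06). That of CXCL2, -1.14 (limma adjusted p = 0.014), rests on few reads. Its call was lost with a pseudocount of 0.1 (-2.18), with voom (-2.72), after rescaling to TPM (-1.73), after quantile normalization (-0.99), and on leaving out any single library other than parental DAC replicate 2 or resistant DAC replicate 1, with the same genes tested (-1.17 to -0.92). IL18 (0.80, limma adjusted p = 0.0035) and CCL5 (-0.30, limma adjusted p = 0.0027) had differences under the called size, and for IL1RN the interval ran from -0.50 to 0.14. Since the interaction contains the parental DAC effect, these values are not independent of those above. The count of 7 was also partly set by the filter, which IL1B, CXCL2 and CCL4 passed through the parental DAC libraries alone.

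Without DAC, resistant cells were not simply at the parental level. TNF was 4.36-fold, CXCL8 3.35-fold and CCL5 2.36-fold higher than in parental DMSO cells, while CCL2 was 9.91-fold lower. These 3 raised and 1 lowered genes compare with 4.45% raised and 4.28% lowered among all tested genes. The median log2 fold change of the 10 genes was 0.16, against 0.02 over all genes. The libraries of the groups did not overlap for any of the 10 genes (5 higher, 5 lower in resistant cells), as for 78.6% of all tested genes.

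The TNF level of resistant DMSO cells (35.3 and 35.0 FPKM) was above both parental DMSO libraries (8.18 and 7.94), with a log2 fold change of 2.00 (SE 0.0358, limma adjusted p = 2.3e-07). It reached 94.7% of the mean of DAC-treated parental cells. CXCL8, at 4.22 and 4.20 against 1.13 and 1.38 FPKM (log2 fold change 1.21, limma adjusted p = 0.00042), reached only 10.2% of the parental DAC mean. CCL5, at 110.1 and 114.4 against 48.3 and 46.7 FPKM (log2 fold change 1.22, limma adjusted p = 1.3e-06), stood at 193% of it.

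CCL2 went the other way, at 0.447 and 0.268 FPKM against 3.48 and 3.60 FPKM in parental DMSO, a log2 fold change of -1.75 (SE 0.105, limma adjusted p = 2.3e-05). CCL3 (log2 fold change 0.57, limma adjusted p = 0.0092), CCL4 (0.53, adjusted p = 0.007) and IL1RN (-0.61, adjusted p = 0.0016) were under the called size. For CCL4, 50 reads in resistant DMSO stood against 1 in parental DMSO, a ratio of 50.3 (95% exact interval 8.63 to 2030), and the gene was called with a pseudocount of 0.1, after rescaling to TPM and with voom (log2 fold changes 2.34, 1.34 and 4.89). CCL3 was called with a pseudocount of 0.1 (1.15). IL1B, CXCL2 and IL18 had adjusted p-values of 0.081, 0.3 and 0.12 by limma, with 95% intervals of -0.50 to 0.00, -0.73 to 0.21 and -0.44 to 0.04.

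Set against DAC-treated parental cells, DAC-treated resistant cells were lower in 6 of the 10 genes and higher in none by the called size, where 9.17% of all tested genes were lowered and 5.29% raised. The filter partly set this count, because IL1B, CXCL2 and CCL4 passed it through the parental DAC libraries alone. CCL2 was 314-fold lower in mean FPKM (log2 fold change -6.15, limma adjusted p = 1.2e-07), IL1B 57.5-fold (-3.33, 8.4e-07), CXCL8 16.0-fold (-3.58, 2e-06), CXCL2 10.7-fold (-1.39, 0.00076), CCL3 7.44-fold (-2.08, 1.6e-05) and CCL4 4.84-fold (-1.11, 0.00016). The folds of CCL2, IL1B and CXCL2 depend strongly on single resistant DAC libraries. In that order these held 0.410 and 0.164, 0.281 and 0.0977, and 0.381 and 0.0234 FPKM. Behind them were 26 and 10, 27 and 9, and 17 and 1 reads. TNF (0.43), CCL5 (0.93) and IL18 (0.60) had higher means in resistant cells and IL1RN (-0.79) a lower one, with limma adjusted p-values of 5.8e-05, 1.6e-06, 0.0016 and 0.00035 but sizes under 1. CCL5 was called higher after rescaling to TPM (1.06), and CCL4 was no longer called after quantile normalization (-0.91). The median of the 10 genes was -1.25, and -0.03 over all tested genes. This comparison and the first one share the parental DAC libraries, so the same 2 libraries enter both.

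The order of the groups by level was not the same for all members. IL1B, CCL2 and IL1RN were highest in parental DAC, then parental DMSO, with the resistant groups lowest and overlapping each other. CXCL8, CCL3 and CCL4 were also highest in parental DAC but lowest in parental DMSO, and the 2 resistant groups lay between them, overlapping for CCL3 and CCL4 and apart for CXCL8. CXCL2 was highest in parental DAC, and its resistant DAC libraries reached from below resistant DMSO to above parental DMSO. TNF was highest in resistant DAC, followed by parental DAC, resistant DMSO and parental DMSO. CCL5 was highest in the overlapping resistant groups, and IL18 was highest in parental DMSO and lowest in parental DAC.

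**Figure D2:**
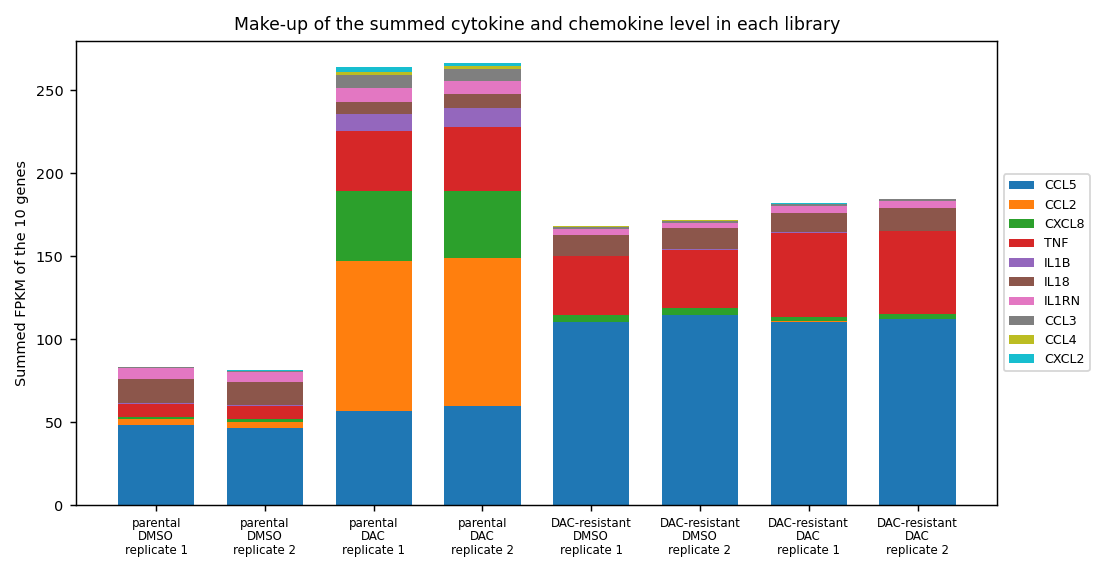
Summed FPKM of the 10 genes in each of the 8 libraries (vertical axis), stacked by gene in the colours of the legend. The sum is 83.4 and 81.2 FPKM in parental DMSO and 263.8 and 266.6 in parental DAC, where CCL2 and CXCL8 fill much of the bar, while CCL5 and TNF fill most of the bars of the resistant cells.

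The make-up of the cytokine RNA differed with it. Shares and ranks between genes depend on the gene lengths used, which are the same in every library. The 10 genes summed to 83.4 and 81.2 FPKM in parental DMSO, 263.8 and 266.6 in parental DAC, 168.3 and 172.0 in resistant DMSO, and 182.1 and 184.7 in resistant DAC. In parental DMSO libraries CCL5 made 57.9% and 57.6% of the sum, followed by IL18 with 17.8% and 17.5% and TNF with 9.80% and 9.78%. In parental DAC libraries CCL2 ranked highest with 34.4% and 33.6%, then CCL5 with 21.5% and 22.3%, followed by CXCL8 with 15.9% and 15.2% and TNF with 13.7% and 14.3%. In resistant DMSO libraries CCL5 made 65.4% and 66.5% and TNF 21.0% and 20.4%, and with DAC these were 60.8% and 60.7%, and 28.1% and 27.0%. CCL2 made at most 0.265% of the sum in any resistant library.

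Across the 8 libraries, the log2 levels of the members fell in with or apart from each other as a description of 4 groups that share their libraries. Pearson's r was 0.98 between CXCL8 and CCL3 and 0.97 between IL1B and CCL2. TNF was closest to CCL5 (0.76) and had r of 0.19 with IL1B and -0.03 with CCL2. IL18 was opposite to IL1B (-0.91) and CCL3 (-0.97).

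For each member whose group means spanned at least 1 on the log2 scale, the 3 tested genes with the highest r over the 8 libraries were listed among genes of the same span. For CXCL8 these were among others TRIM22 (0.997) and MX2 (0.996), for CCL4 GBP2 (0.999), STAT2 (0.996) and IFI27 (0.996), and for IL1B DNAH8 (0.999), CTSD (0.999) and MX1 (0.999). STAT2, MX1, MX2, GBP2, IFI27 and TRIM22 are known as interferon-responsive genes or interferon signal factors. Whether such genes are more frequent here than among all tested genes was not tested. The 8 libraries form only 4 groups, and IL1B and CCL4 passed the filter through the parental DAC libraries alone. CCL3 was most like SERPINI1, LAP3 and CLU (each 0.996), and the genes most like TNF included TPM2 (0.993) and LUM (0.993). CCL5 was most like LINC01602 (0.9997), SSR1 (0.999) and ZNF90 (0.999), CCL2 like ENSG00000189423 (0.999), FBXO39 (0.999) and DLX3 (0.999), and CXCL2 like ENSG00000233196 (0.988), C3orf86 (0.987) and SH2D2A (0.986). IL18 and IL1RN spanned less than 1 and were not listed.

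The other genes of the pathway were described from 9 lists. Of 16 related chemokines, 10 were tested, and DAC raised 7 and lowered none of them in parental cells, where 6.66% of all tested genes were raised. The filter partly set this count, because 7 of the 10 (CXCL1, CXCL16, CCL4L2, CCL7, CCL8, CCL13 and CCL20) passed it through the parental DAC libraries alone, 6 of the 7 raised genes among them. CCL8 (MCP-2) had 1 read in each parental DMSO library and 50.5 and 46.0 FPKM in parental DAC. CCL13 (MCP-4) and CCL7 (MCP-3), with no read in parental DMSO, were at least 170-fold and at least 59.4-fold higher (against 3 reads over both parental DMSO libraries), at 10.1 and 9.90 and at 2.91 and 3.75 FPKM. CXCL1, the neutrophil chemokine nearest to CXCL2, had 0.0926 and 0.169 FPKM in parental DMSO and 6.89 and 6.79 FPKM in parental DAC (log2 fold change 2.79). CCL3L3 (1.65), CCL20 (1.07) and CCL4L2 (1.02) were raised too. None of the 10 was called with DAC in resistant cells or between the cell lines in DMSO, and 8 were lower in resistant than in parental cells under DAC, against 9.17% of all tested genes, a count that the same filter partly set.

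Of 20 other inflammatory cytokines, 11 were tested. DAC raised 6 and lowered none in parental cells, against 6.66% of all tested genes raised: IL32 (2.52), TNFSF10, which encodes TRAIL (2.29), LTB (2.25), EBI3 (2.05), LTA (1.88) and TNFSF13B, which encodes BAFF (1.27). Of the 11, EBI3, LTA and OSM passed the filter through the parental DAC libraries alone. Of the other 8 tested, 4 were raised. IL1A, IL6 and IL10 were under the filter, with at most 1.14, 0.141 and 0.402 FPKM in any library. In resistant DMSO cells IL32 (1.22) and TNFSF13B (1.49) were raised against parental DMSO cells, 18.2% of the list against 4.45% of all tested genes. TNFSF13B had 2.18 and 1.56 FPKM in parental DMSO, 6.92 and 7.11 FPKM in resistant DMSO and 6.04 and 5.76 FPKM in parental DAC.

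The receptors of these cytokines did not all go the same way. Of 17 receptors and inhibitors, 11 were tested, and DAC raised 3 of them, among which were IL1R1 (1.9), the signalling IL-1 receptor, and IL1R2 (1.12), the decoy IL-1 receptor, and lowered CCR2 (-1.41) and CXCR2 (-1.30) in parental cells. That is 27.3% raised and 18.2% lowered, against 6.66% and 2.64% of all tested genes, and 2 of the 3 raised genes passed the filter through the parental DAC libraries alone. CCR2, the CCL2 receptor, had 60.0 and 63.0 FPKM in parental DMSO, 22.1 and 22.9 in parental DAC, 19.6 and 18.6 in resistant DMSO and 14.8 and 16.1 in resistant DAC. CXCR2, the receptor of CXCL8 and CXCL2, had 6.76 and 6.81, 2.24 and 2.08, 1.36 and 1.604, and 1.17 and 1.21 FPKM in the same order. Both receptors were highest in parental DMSO cells, and both were lowered in resistant against parental DMSO cells (-1.63 and -1.65). For CCR1 (0.80), TNFRSF1A (0.56), TNFRSF1B (0.66) and the IL-18 inhibitor IL18BP (0.71) the DAC effect in parental cells was positive and under the called size. CCR1 (-1.07) and IL18BP (-1.15) were among the 5 receptor and inhibitor genes lowered in resistant against parental cells under DAC, 45.5% of the list against 9.17% of all tested genes.

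Of 14 tested inflammasome and cytokine release genes, DAC raised AIM2 (1.5), a DNA sensor, in parental cells and lowered none, with a median of 0.41. That is 7.1% raised, near the 6.66% of all tested genes. CASP1, which cuts the IL1B and IL18 precursors, had 15.8 and 15.9 FPKM in parental DMSO, 27.9 and 26.5 in parental DAC, 11.2 and 11.6 in resistant DMSO and 11.5 and 11.3 in resistant DAC. Its DAC effect in parental cells was 0.74 (limma adjusted p = 9.6e-06), and under DAC it was lower in resistant cells (-1.18). ADAM17, the protease that sheds TNF, lay between 6.54 and 8.36 FPKM in the 8 libraries. In resistant against parental DMSO cells NINJ1 was raised (1.01) and NLRC4 (-1.05) and CARD8 (-1.05) were lowered, 7.1% and 14.3% of the list against 4.45% and 4.28% of all tested genes.

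Of 19 tested NF-kB subunits, inhibitors and kinases, DAC raised BCL3 (1.02) and NFKBIA (1.00) in parental cells, 10.5% of the list against 6.66% of all tested genes, with a median of 0.45. NFKBIA, the inhibitor that NF-kB itself induces, had 43.1 and 43.5 FPKM in parental DMSO, 87.6 and 88.1 in parental DAC, 21.6 and 20.1 in resistant DMSO, and 19.5 and 21.3 in resistant DAC. Resistant DMSO cells were lower than parental ones in RELB (-1.45), NFKB1 (-1.33) and NFKBIA (-1.02), 15.8% of the list against 4.28% of all tested genes. Under DAC, 7 of the 19 were lower in resistant cells, 36.8% against 9.17%. TNFAIP3, an NF-kB inhibitor that is also its target, was not called in any of the comparisons. Of 19 tested adaptors of the Toll-like receptor, IL-1 and TNF pathways, DAC raised MYD88 (1.66) in parental cells, 5.3% of the list against 6.66% of all tested genes. TIRAP (-1.47) and BIRC3 (-1.07) were lower in resistant DMSO cells, 10.5% against 4.28%.

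Several AP-1, C/EBP and early response factors were raised in both comparisons in which TNF and CXCL8 were. These comparisons share the parental DMSO libraries, so being raised in both is not independent. No share of all tested genes raised in both is given here. Of 16 tested, DAC raised 7 and lowered none in parental cells (median 0.89), among them IER3 (3.13), FOS (1.75), JUN (1.74), EGR1 (1.73), EGR2 (1.33) and JUNB (1.26). The share raised was 43.8%, against 6.66% of all tested genes, and EGR2 passed the filter through the parental DAC libraries alone. Of the 16, 5 were raised and 0 lowered in resistant against parental DMSO cells, EGR1 (2.31), JUN (1.66), IER3 (1.6) and FOS (1.54) among them, 31.2% against 4.45% of all tested genes. FOS had 6.02 and 6.01 FPKM in parental DMSO, 21.8 and 23.5 in parental DAC, 18.5 and 20.4 in resistant DMSO, and 20.6 and 18.6 in resistant DAC. JUN had 9.44 and 9.09, 33.9 and 32.9, 32.3 and 30.5, and 26.0 and 27.3 FPKM in that order. IER3 had 2.68 and 2.22 FPKM in resistant DMSO against 9.16 and 8.71 in parental DAC, and JUNB 25.03 and 21.1 against 36.0 and 35.9.

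Of 14 tested genes for decay and stability of cytokine mRNA, DAC raised ZFP36L1 (2.16), which binds AU-rich elements, and DUSP1 (2.1), a phosphatase of the p38 and JNK kinases, in parental cells, 14.3% of the list against 6.66% of all tested genes. ZFP36L1 was also raised in resistant against parental DMSO cells (1.06), 7.1% of the list against 4.45% of all tested genes. That comparison shares the parental DMSO libraries with the one above. Of 20 NF-kB target genes outside the cytokines, DAC raised 8 and lowered none in parental cells (median 0.84), led by MMP9 (5.77), a matrix protease, and BCL2A1 (2.34), a survival factor. Of all tested genes 6.66% were raised, and 2 of the 8, VCAM1 and TNFAIP6, passed the filter through the parental DAC libraries alone. MMP9 had 1.34 and 0.988 FPKM in parental DMSO, 116.3 and 116.4 in parental DAC, and 1.11 to 1.65 FPKM in the 4 resistant libraries. In resistant against parental DMSO cells CD83 (1.28), IER5 (1.07) and KLF6 (1.04) were raised and SERPINB2 (-1.11) was lowered, 3 and 1 of the 20 against 4.45% and 4.28% of all tested genes. Under DAC 8 of the 20 were lower in resistant cells, against 9.17% of all tested genes. In none of the 9 lists was any gene called with DAC in resistant cells, where 0.235% of all tested genes were called.

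**Figure D3:**
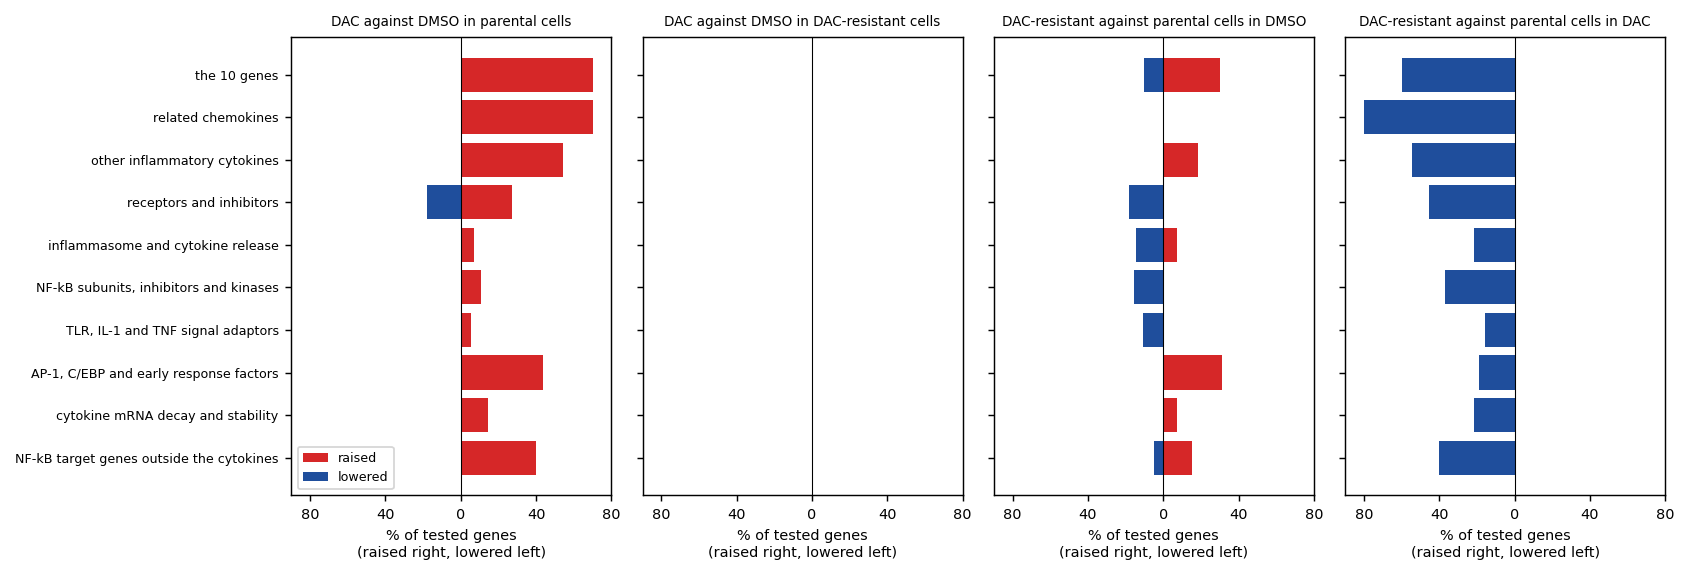
Share of tested genes called raised (right of 0) and lowered (left of 0), in percent, for the 10 genes and the 9 lists in 4 comparisons. With DAC in parental cells 70.0% of the 10 genes, 70.0% of the related chemokines and 43.8% of the AP-1, C/EBP and early response factors are raised, against 6.66% of all tested genes. The filter partly set the shares of the 10 genes and of the related chemokines. The panel for DAC in DAC-resistant cells is empty, and in the DMSO comparison the AP-1 list reaches 31.2% raised, against 4.45% of all tested genes.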

How the data were processed

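The deposited table held FPKM values multiplied by 1000 for each library; per the labels and the study's methods the authors trimmed reads with Cutadapt 1.9.1, aligned them to hg38 with HISAT2 2.1.0, sorted them with SAMtools 1.6 and counted them with HTSeq 0.13.5 on Ensembl GRCh38 genes. Libraries were made with the KAPA mRNA HyperPrep kit, and the strand setting of the counting is not given in the sources used here. Values were divided by 1000, and reads behind them were recovered from gene lengths and library totals (86.9% to 87.4% of gene values were whole reads within 0.02). For CXCL8, CCL2, CCL5 and IL1RN the annotated length gave no whole reads and the length was chosen so that the reads came out whole; for CCL2 it exceeds the span of the gene in the annotation used here, so its reads are uncertain to that extent. A linear model of log2(FPKM + 1) with 1 mean per group took all 8 libraries (limma 3.58.1, run in R 4.3.3), with variances moderated along a trend (2.5 prior and 4 residual degrees of freedom), in 5 comparisons. The study's count test could not be used as the main test on FPKM. The method was tested on simulated data. The 10 genes, the 9 gene lists and the marker lists were chosen with earlier results of these data known. All members are named; of each list, up to 6 called genes of the largest change are named, with fixed receptors, convertases and regulators of the members. A few genes that these rules would name are not reported here. Alternatives were other pseudocounts, filters, scalings and call rules, voom on recovered reads, a replicate block, and leaving out each library. Replicate libraries differed by more than sampling noise. Intervals on reads cover counting error only.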

Additional observations from a re-analysis of the deposited data

Results flagged for a closer look

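For 7 of the 10 genes, resistant and parental cells differed in their change with DAC, by limma's interaction term (resistant minus parental DAC effect, on the log2 scale). All 7 had the lower DAC effect in resistant cells, against 7.16% of all tested genes. The difference was -4.79 for CXCL8, -4.41 for CCL2, -3.08 for IL1B, -2.65 for CCL3, -1.64 for CCL4, -1.56 for TNF and -1.14 for CXCL2. The call for CXCL2 was lost with a pseudocount of 0.1 (-2.18), after rescaling to TPM (-1.73), with quantile normalization (-0.99) and with voom (-2.72). With the same genes tested, it was also lost without any one library other than parental DAC replicate 2 or resistant DAC replicate 1 (-1.17 to -0.92). IL1B, CXCL2 and CCL4 passed the filter through the parental DAC libraries alone. Groups of 2 libraries were too small for a search for single outlying samples.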

How the results depend on the processing

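The number of members called changed with several settings. Between the cell lines in DMSO, 6 members were called with a pseudocount of 0.1 and 5 each after rescaling to TPM and with voom, instead of 4. With genes of a mean of at least 5 FPKM, which leaves 6 of the 10 genes, 3 members were called with DAC in parental cells, 2 between the cell lines under DAC and 3 in the interaction, instead of 7, 6 and 7. At an adjusted p under 0.05 with no fold minimum, the counts were 10 with DAC in parental cells, 1 with DAC in resistant cells, 7 between the cell lines in DMSO, 10 under DAC and 9 in the interaction. Of all 14899 tested genes, the same rule called 8593, 1673, 8574, 9989 and 7350 in that order. Over the libraries left out in turn, the counts ran from 4 to 7 with DAC in parental cells, from 3 to 6 under DAC and from 4 to 7 in the interaction, the lowest without either parental DAC library, since IL1B, CXCL2 and CCL4 then fell under the filter. With the same genes tested, an alternative chosen after seeing the data, 7 members stayed raised by DAC in parental cells without either library. Quantile normalization moved the median of all genes by -0.11 with DAC in parental cells and by 0.10 in the interaction, and rescaling to TPM by 0.11 between the cell lines under DAC.

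The only changes of sign were in log2 fold changes near 0 with DAC in resistant cells, none of them called. With a pseudocount of 0.1 the value was -0.017 for IL1B, with voom -0.074 for IL1B and -0.10 for CXCL2, and after rescaling to TPM 0.019 for CCL5 and 0.028 for IL18. Without resistant DMSO replicate 1 it was -0.016 for IL1B and 0.015 for CCL2, without resistant DMSO replicate 2 0.011 for CCL4, 0.017 for CCL5 and 0.016 for IL18, without resistant DAC replicate 1 -0.10 for IL1B, -0.13 for CXCL2 and 0.11 for IL18, and without resistant DAC replicate 2 0.058 for CCL2 and 0.036 for CCL4, the same whether the filter was run anew or the same genes were tested. Over the libraries left out, values ran from -0.10 to 0.12 for IL1B, from -0.13 to 0.31 for CXCL2, from -0.22 to 0.058 for CCL2, from -0.072 to 0.036 for CCL4, from -0.038 to 0.017 for CCL5 and from -0.11 to 0.11 for IL18. The cause was not tested.

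Replicate numbers did not pair the libraries (correlations of same-numbered deviations -0.022 to 0.02). With the replicate block, the members called were 7, 0, 4, 6 and 7 (DAC in parental cells, DAC in resistant cells, the cell lines in DMSO, the cell lines under DAC, the interaction), as without it, and genes called in all were 1388, 35, 1293, 2152 and 1586 against 1387, 35, 1300, 2154 and 1583. In the same order, genes called in all were 2208, 60, 2367 and 3348 with voom (the first 4), 2097, 107, 2263 and 3249 with a pseudocount of 0.1 (the first 4), 573, 6, 517, 908 and 721 with a mean of at least 5 FPKM and 8593, 1673, 8574, 9989 and 7350 by adjusted p alone. After rescaling to TPM they were 89 with DAC in resistant cells and 2036 between the cell lines in DMSO, and without resistant DAC replicate 1, with the same genes tested, 53 with DAC in resistant cells. Over all members and alternatives 1231 values kept their direction and side of the threshold. Depth limits CXCL2, IL1B, CCL2 and CCL4 in resistant cells, with 1 to 28 reads per library.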
